A study of Rangifer tarandus with 4 samples.

Results

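The genes described here are the ligands, receptors and SMAD proteins of the transforming growth factor beta (TGF-beta) superfamily, as they stand in the gene annotation deposited with a single-cell RNA study of reindeer blood. Members were taken by symbol: protein-coding genes named TGFB1 to TGFB3, TGFBR with a digit, BMP or GDF with a number, BMPR1A, BMPR1B, BMPR2, INHA, INHBA to INHBE, NODAL, AMH, MSTN, any symbol starting with ACVR, or SMAD with a digit. The rule found 50 of 21861 protein-coding genes, namely 29 ligands, 12 receptors, 8 SMADs and BMP1, which carries the name of the family but encodes a protease. It uses names only, and no measured value chose a member. The symbols GDF3 and BMP8B found no gene and are not analysed here.

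The study profiled reindeer (Rangifer tarandus) peripheral blood mononuclear cells 3 days after a wound. One group of 2 libraries came from blood of the saphenous vein, which the titles call back, and the other group of 2 from blood of the distal antler velvet. About 12000 cells were loaded per library. The labels give no age, sex, genotype or agent, and do not say whether the 2 title codes mark animals. Counts per cell were not analysed here. Expression levels, depth and a cell type check are therefore not given, and nothing below compares antler with back. What is described is the gene models: positions on the cattle (Bos taurus) assembly ARS-UCD1.2, counted from 1. Each gene has 1 model set, so there are no replicates and no test was run.

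The superfamily signals by a short chain of parts. A dimeric ligand, cut from the C-terminal end of a longer precursor, brings together type II and type I serine/threonine kinase receptors at the cell surface. The type I receptor then phosphorylates receptor-regulated SMADs, which join the common SMAD4 and enter the nucleus, while inhibitory SMADs dampen the signal. In blood and wounds the TGF-beta branch is best known for restraining lymphocytes and driving matrix deposition, and the BMP branch for bone and cartilage formation, which also takes place in the growing antler.

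Ligand genes had shorter spans and fewer exons at the median than receptor and SMAD genes. The median span, from the first to the last annotated base of a gene, was 7141 bases for the 29 ligands, 85537.5 bases for the 12 receptors and 73469 bases for the 8 SMADs, against 14041 bases over all 21861 protein-coding genes and 21004.5 bases over the 16808 of them that carry a symbol, as every member does. In the transcript with the longest coding sequence, which was read for each gene, the median number of exons was 3 for ligands, 10.5 for receptors and 7 for SMADs, against 6 over all protein-coding genes and 8 over those with a symbol. The SMAD median thus lay between these 2, and SMAD7 and SMAD6 had 4 and 5. Ligand spans overlapped those of the other groups, from 1743 bases in GDF1 to 159190 bases in BMP6. Receptors ran from 14239 bases in ACVRL1 to 220328 bases in BMPR1B, and SMADs from 28581 bases in SMAD7 to 142261 bases in SMAD6. A span over 100000 bases was found in 11.6% of all protein-coding genes, in 14.3% of those with a symbol and in 8 members: ACVR1, BMP5, BMP6, BMPR1B, BMPR2, SMAD3, SMAD6 and TGFBR3. The proteins differed less than the genes, with a median of 425 codons in ligands, 532 in receptors and 465 in SMADs.

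**Figure D1:**
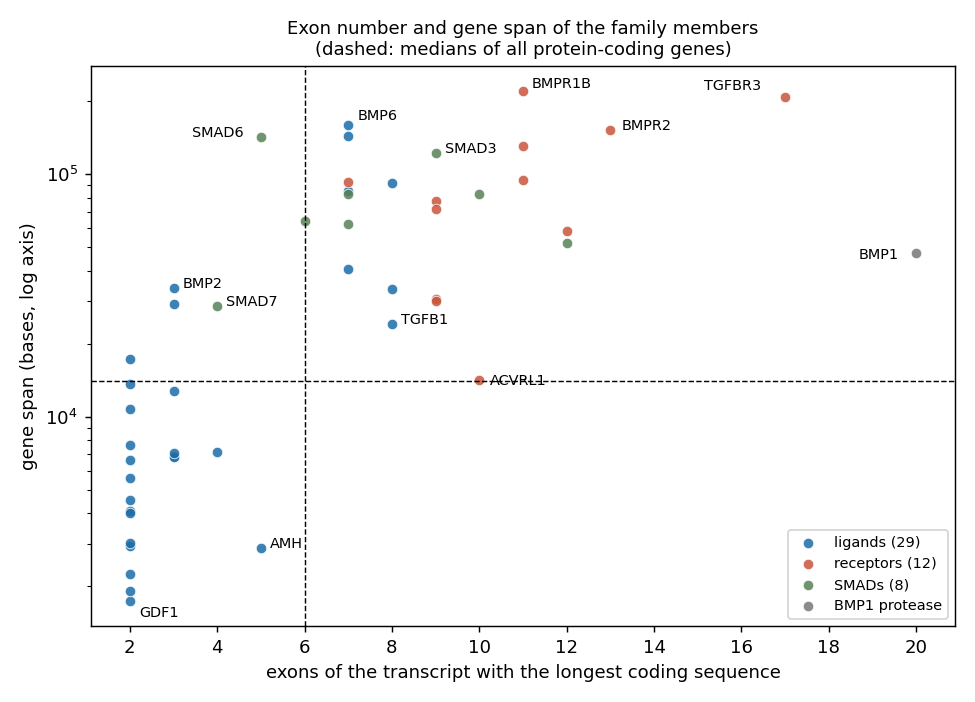
Each point is 1 of the 50 members, placed by the exons of its transcript with the longest coding sequence (x axis) and its gene span in bases (y axis, log scale), with colour for role. Dashed lines mark the medians of all protein-coding genes, 6 exons and 14041 bases; most ligands lie in the lower left, from GDF1 upward, and all receptors and SMADs lie above the horizontal line.

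The ligands fell into 3 kinds of gene by coding exons. The most common kind had 2 coding exons, found in 16 of 29 ligands, in 10.6% of all protein-coding genes and in 7% of those with a symbol. They were BMP2, BMP4, BMP10, BMP15, GDF1, GDF2, GDF5, GDF6, GDF7, GDF9, GDF15, INHA, INHBA, INHBB, INHBC and INHBE. In these the first coding exon had 262 to 625 bases and the last 641 to 986 bases, not counting the stop codon. The intron between them varied more, from 247 bases in INHBE to 15606 bases in GDF6, with a median of 2574 bases. The smallest such gene was GDF1, a factor of left-right patterning, on chromosome 7 from 4333080 to 4334822 (plus strand) with 369 codons. The one with the largest gene span was BMP2, an inducer of bone, on chromosome 13 from 49151441 to 49185579 (plus strand). Of its 2 transcripts, 1 reached 22163 bases further than the other and had 3 coding exons. The shorter one, with 2 coding exons, was the one read here. BMP4, its close relative (chromosome 10, 66518527 to 66525667, minus strand), spanned 7141 bases. The vascular ligands GDF2 (chromosome 28, 42262749 to 42267306, minus strand) and BMP10 (chromosome 11, 67211523 to 67219184, minus strand) had 431 and 424 codons. GDF6 (chromosome 14, 68058424 to 68075722, plus strand) and GDF7 (chromosome 11, 78204301 to 78208326, minus strand), relatives of the joint factor GDF5, had 470 and 450.

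A second kind had 7 or 8 coding exons and comprised BMP5, BMP6, BMP7 and BMP8A together with TGFB1, TGFB2 and TGFB3. Their spans ranged from 24181 bases in TGFB1 (chromosome 18, 50484512 to 50508692, minus strand) to 159190 bases in BMP6 (chromosome 23, 47503385 to 47662574, minus strand). In BMP6, a regulator of the iron hormone hepcidin, 1 intron of 122353 bases made up most of the gene. BMP5 (chromosome 23, 4470532 to 4614742, plus strand), which takes part in ear and rib cartilage, had an intron of 72812 bases at the same place, the first. BMP7, a kidney and bone factor (chromosome 13, 58889622 to 58975046, plus strand), had one of 32439 bases, again the first. In BMP8A (chromosome 3, 106544060 to 106584726, minus strand) the longest intron, of 17472 bases, was the third.

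The remaining 6 ligands had 3 to 5 coding exons. MSTN, or myostatin, the brake on muscle growth (chromosome 2, 6278630 to 6285486, plus strand), and GDF11, which patterns the body axis (chromosome 5, 57506100 to 57512983, minus strand), had 3 each. So did BMP3 (chromosome 6, 95815372 to 95844458, plus strand), GDF10 (chromosome 28, 42278915 to 42291696, minus strand) and the embryonic inducer NODAL (chromosome 28, 26636791 to 26643883, minus strand). AMH, the hormone that makes the Müllerian duct regress (chromosome 7, 21401483 to 21404348, plus strand), had 5 coding exons within 2866 bases and, with 575 codons, the longest coding sequence among ligands. The shortest belonged to GDF15, a cytokine of cell stress (chromosome 7, 4778258 to 4780515, minus strand), with 308 codons.

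Whatever the number of exons, the first intron of the coding sequence cut a codon after the same base in every ligand. Its distance from the start codon differed, from 196 coding bases in NODAL to 625 in GDF5. An intron in phase 1 interrupts a codon after its first base, one in phase 2 after its second, and one in phase 0 lies between codons. The first coding intron was in phase 1 in 29 of 29 ligands, against 38.7% of the 18720 protein-coding genes with 2 or more coding exons and 38.4% of those that also have a symbol. It was also in phase 1 in all annotated transcripts of those 29 genes. Of the receptors 11 of 12 had it in phase 1, with ACVR1 in phase 0. Of the SMADs 5 of 8 did, while SMAD2 and SMAD3 had phase 2 and SMAD4 phase 0. Genes of 1 family descend from common ancestors, so these counts do not stand for independent genes.

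Coding exon lengths, read back from the stop codon, were equal in some sets of relatives and not in others. Of the 34 members with 3 or more coding exons, 19 had last 3 coding exons of the same 3 lengths as another gene, against 8.99% of the 16402 protein-coding genes with that many and 8.56% of those with a symbol. The others, among them SMAD4, SMAD6, SMAD7, TGFBR2 and BMPR2, had no such match. BMP2 and BMP4, with 2 coding exons each, ended in exons of 842 and 854 bases. Counting within the family, 13 pairs of members had at least 3 equal coding exons in a row from the stop. Each count ended at the first unequal length, and exons further back could be equal again.

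Among ligands the longest such run was in BMP6 and BMP7, which had 6 of 7 coding exons in common, of 193, 149, 198, 77, 111 and 147 bases. Only their first coding exons differed in length, with 613 bases in BMP6 and 418 bases in BMP7. BMP5 shared the last 3 with them and had an exon of 195 bases in place of the one of 198. The exons of 193 and 149 bases before that one were again equal. BMP8A shared the last 2, and the exons before those had 201 and 80 bases. All 4 had the same series of intron phases, 1, 2, 1, 1, 0 and 0, which 2 other genes of the annotation also had. Among these 2 was ENSBTAG00000053451, a gene without a symbol. It had all 7 coding exons of BMP8A in length and the same 405 codons. It lay on the same chromosome as BMP8A, from 106294530 to 106324412 on the opposite strand, 219647 bases away with 5 genes between them. It was the only gene of the annotation whose whole series of coding exon lengths equalled that of a member.

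TGFB2 and TGFB3 ended in coding exons of 154 and 156 bases, a pair found in no other gene when 1 transcript per gene was read. TGFB2 (chromosome 16, 21808003 to 21900539, plus strand) and TGFB3 (chromosome 10, 87237844 to 87271480, minus strand) are the 2 isoforms best known from heart and palate development. TGFB1, the isoform of platelets and lymphocytes, did not share this ending in its longest model of 499 codons, whose last 2 coding exons had 168 and 315 bases. Of its 4 transcripts, 1 did end in 154 and 156 bases, with 390 codons. Outside these groups the matches were shorter. MSTN and GDF11 shared a last coding exon of 378 bases, as did 52 genes outside the family. BMP3 and GDF10 shared one of 189 bases, as did 82 others. BMP4 and BMP15 shared one of 854 bases, as did 3 others.

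**Figure D2:**
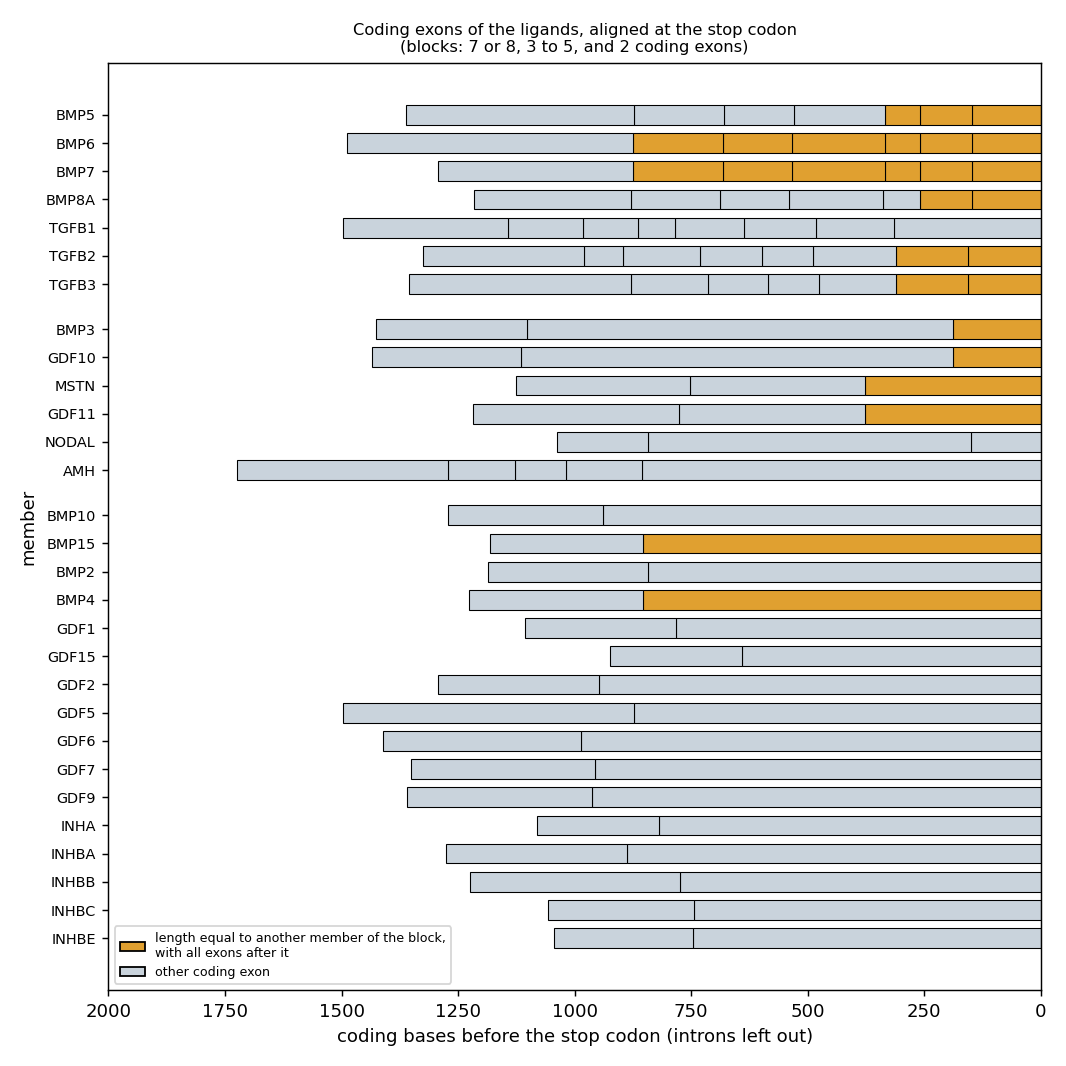
Coding exons of the 29 ligands drawn to scale as boxes back from the stop codon at the right edge (x axis, coding bases, introns left out), in blocks of 7 or 8, 3 to 5 and 2 coding exons. Orange marks an exon whose length, with those of all exons after it, equals another ligand of the same block; BMP6 and BMP7 have 6 such exons, BMP5 has 3, and BMP8A, TGFB2 and TGFB3 have 2.

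The 7 type I receptors formed 3 sets by their last coding exons. TGFBR1, ACVR1B and ACVR1C, which act on SMAD2 and SMAD3, shared their last 6 coding exons, of 231, 168, 157, 125, 131 and 123 bases. These 935 bases stand for 311 whole codons of 499, 505 and 492 in the 3 genes. BMPR1A and BMPR1B, receptors of bone morphogenetic proteins, shared their last 5, of 193, 298, 176, 131 and 123 bases. ACVR1 and ACVRL1 shared their last 7, of 212, 100, 147, 276, 198, 131 and 132 bases. ACVRL1 is the endothelial receptor of GDF2 and BMP10, and ACVR1 the receptor altered in a disease of ectopic bone. None of these 3 series was found in another gene. The first 2 sets also shared their whole series of intron phases within each set.

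One exon length ran through both receptor types. The last coding exon but 1 had 131 bases in all 7 type I receptors and in the type II receptors ACVR2A and ACVR2B. This made 9 of 12 receptors, against 0.689% of protein-coding genes with 2 or more coding exons and 0.752% of those with a symbol. The length was picked as the most common one at this place among these same receptors. Their count was therefore bound to be high, and the comparison only describes it. The exceptions were the type II receptors TGFBR2, with 128 bases, and BMPR2, with 1280 bases, and the co-receptor TGFBR3, which has no kinase domain, with 108 bases. The ending of 131 and 123 bases, common to 5 type I receptors, was also found in EML1, EML2 and SCMH1, so that pair of lengths is not particular to the family. ACVR2A and ACVR2B, which bind activins and myostatin, shared their last 4 coding exons, of 115, 139, 131 and 192 bases. Further back, both also had exons of 144 bases.

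Single receptor genes also stood out in transcript number, coding length or the size of an exon or intron. BMPR1B (chromosome 6, 29373117 to 29593444, minus strand) had the most transcripts of all members, 6, and a first intron of 58656 bases in the transcript read. ACVR1 (chromosome 2, 38466454 to 38597910, plus strand) was modelled with 782 codons, while the other type I receptors had 492 to 532. Its first coding exon had 636 bases, and no 5′ UTR, the untranslated stretch before the start codon, was annotated. ACVR2B (chromosome 22, 11825773 to 11855763, plus strand) likewise had a longest model of 793 codons that opened with a coding exon of 1213 bases, while its other transcripts had 479, 542 and 543 codons. ACVR2A (chromosome 2, 48279649 to 48374634, minus strand) had 513 codons. BMPR2, the receptor mutated in heritable pulmonary hypertension (chromosome 2, 90864689 to 91017391, plus strand), had the longest coding sequence of all members with 1038 codons, of which a coding exon of 1280 bases held a large part. TGFBR2, the receptor that binds TGF-beta first (chromosome 22, 5091037 to 5184321, plus strand), held 800 of its coding bases in 1 exon. TGFBR3, or betaglycan, which presents TGF-beta to TGFBR2 (chromosome 3, 51501752 to 51709606, plus strand), had 17 exons, the most of the receptors.

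The receptor-regulated SMADs formed 2 sets by their last coding exons. SMAD2 (chromosome 24, 47500431 to 47583313, minus strand) and SMAD3 (chromosome 10, 13895783 to 14018262, plus strand), which carry TGF-beta and activin signals, shared their last 4 coding exons, of 213, 138, 145 and 121 bases. SMAD1 (chromosome 17, 12740787 to 12823604, minus strand), SMAD5 (chromosome 7, 47561017 to 47623314, plus strand) and SMAD9 (chromosome 12, 24731844 to 24795963, plus strand), which carry BMP signals, shared their last 3, of 222, 257 and 141 bases. Neither ending was found in any other gene. Further back, SMAD2 and SMAD3 also both had exons of 194 and 75 bases. SMAD2 had a coding exon of 90 bases that SMAD3 lacked, and 1 of the 3 SMAD2 transcripts also lacked it. The common SMAD4 (chromosome 24, 50524995 to 50577277, plus strand) had 553 codons over 11 coding exons and shared no last coding exon length with another SMAD. The inhibitory SMAD6 (chromosome 10, 13478777 to 13621037, plus strand) and SMAD7 (chromosome 24, 48598830 to 48627410, minus strand) had 5 and 4 coding exons. These 2 began with coding exons of 817 and 613 bases and ended with ones of 539 and 536 bases.

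BMP1, a metalloprotease that trims procollagen (chromosome 8, 69478799 to 69526082, plus strand), had 20 coding exons and 988 codons. No other member shared its last 3 coding exon lengths. Its last 17 equalled those of the related proteases TLL1 and TLL2, which have 21 coding exons each.

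**Figure D3:**
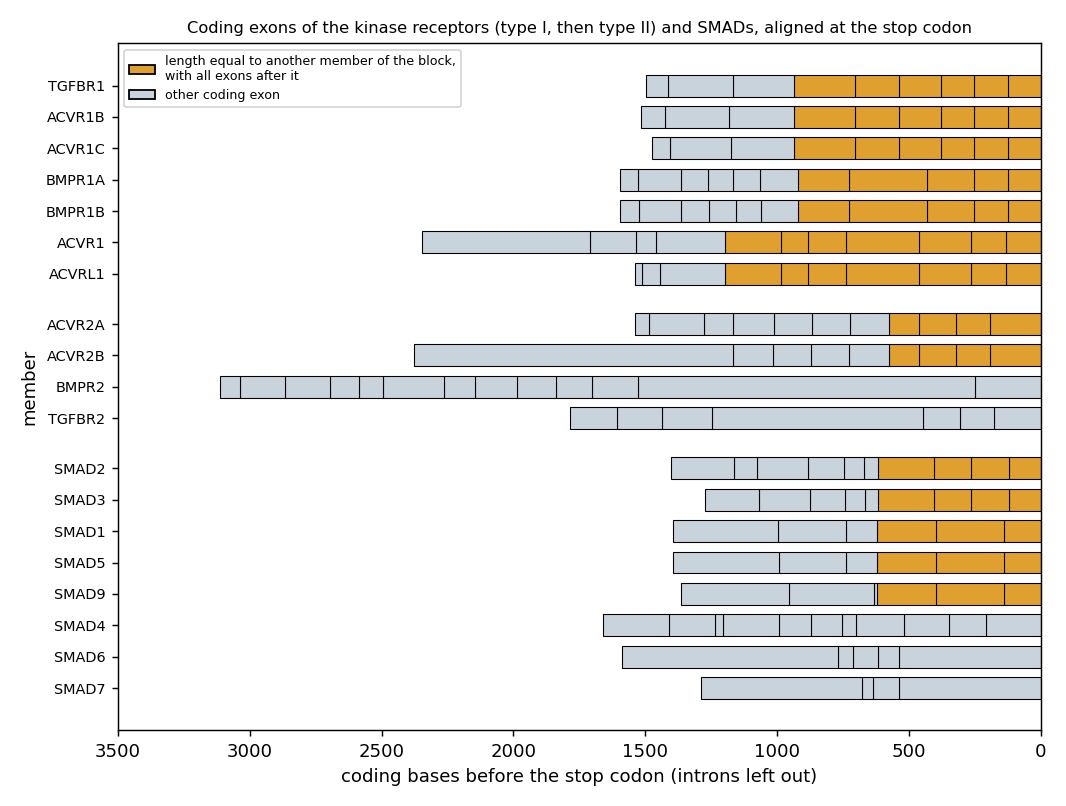
Coding exons of the 7 type I receptors, 4 type II receptors and 8 SMADs drawn to scale back from the stop codon at the right edge (x axis, coding bases, introns left out). Orange marks exons whose length, with those of all exons after them, equals another member of the block: 6 in TGFBR1, ACVR1B and ACVR1C, 5 in BMPR1A and BMPR1B, 7 in ACVR1 and ACVRL1, 4 in ACVR2A and ACVR2B, 4 in SMAD2 and SMAD3, and 3 in SMAD1, SMAD5 and SMAD9.

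The libraries were made with a 3′ end protocol, so the part of each model past the stop codon, the 3′ UTR, is where reads of a gene are most likely to lie. A 3′ UTR of at least 1 base was annotated for 41 of 50 members, against 65.5% of all protein-coding genes and 79.8% of those with a symbol. The members' share was 82.0%. By role it was 22 of 29 ligands, 10 of 12 receptors and 8 of 8 SMADs. The 9 members without one were the ligands BMP15, BMP8A, GDF5, GDF7, GDF11, INHBC and NODAL and the type I receptors ACVR1B and ACVR1C. Among genes that had one, the median longest 3′ UTR over transcripts was 559.5 bases in ligands, 1852 in receptors and 917 in SMADs. It was 626 bases over all protein-coding genes and 649 bases over those with a symbol. A longest value favours groups with more transcripts. In the transcript with the longest coding sequence alone, the medians were 559.5 bases in 20 ligands, 1425 in 10 receptors and 1226 in 5 SMADs.

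The ligand 3′ UTRs ran from 16 bases in GDF1 to 2544 bases in INHBA, the activin beta A chain (chromosome 4, 79288772 to 79302445, plus strand). INHBB, the beta B chain (chromosome 2, 72108054 to 72113653, plus strand), came next with 1898 bases, while INHA, the alpha chain that turns activin into inhibin (chromosome 2, 107501784 to 107504801, plus strand), had 39 bases. BMP2 and BMP4 are close relatives, and their 3′ UTRs measured 1125 and 287 bases. MSTN had 1502 bases, whereas its relative GDF11 had none. The oocyte factors GDF9 (chromosome 7, 44442457 to 44445396, minus strand) and BMP15 (chromosome X, 88803967 to 88810596, plus strand) had 394 bases and none. Among the TGF-beta isoforms the longest 3′ UTRs measured 315 bases in TGFB1, 759 bases in TGFB2 and 1104 bases in TGFB3.

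The longest 3′ UTR of all members was that of BMPR2, with 7128 bases, ahead of the next receptor values of 2329 bases in TGFBR2, 2307 in ACVR2A and 2210 in BMPR1A (chromosome 28, 41486119 to 41544234, plus strand). The type I receptor TGFBR1 (chromosome 8, 64107418 to 64179245, plus strand) had 512 bases, and ACVR2B had 138. Of the SMADs, SMAD5 had 5188 bases and its relatives SMAD1 and SMAD9 had 1226 and 608. SMAD3, the SMAD most tied to fibrosis, had only 9 bases, and SMAD2 had 602.

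**Figure D4:**
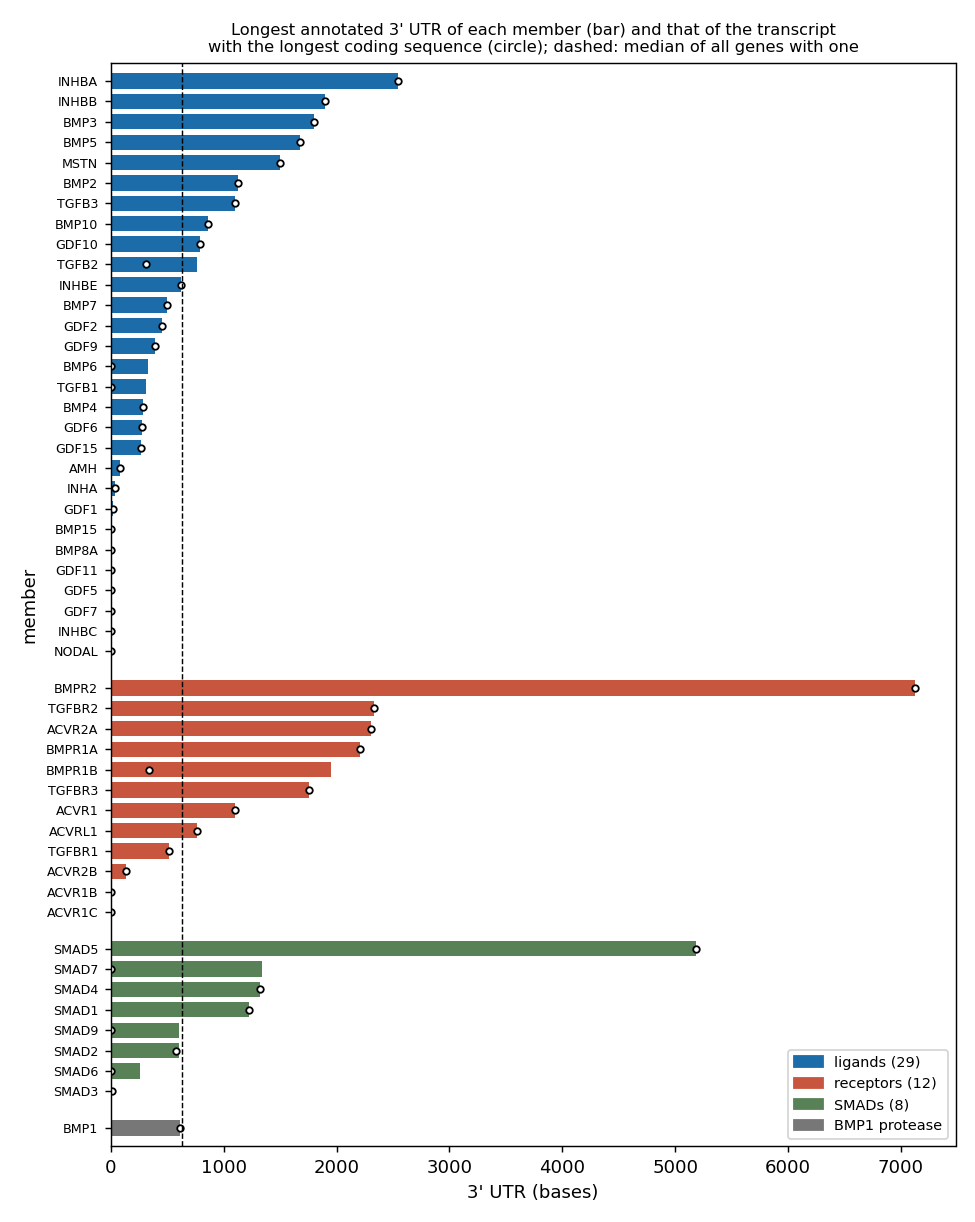
Bars give the longest annotated 3′ UTR of each of the 50 members in bases (x axis), grouped and coloured by role, and circles give that of the transcript with the longest coding sequence. The dashed line is the median of all protein-coding genes with a 3′ UTR, 626 bases; BMPR2 with 7128 and SMAD5 with 5188 bases stand far to the right, and 9 members have no bar.

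For several members the 3′ UTR depended on the transcript read. Of 90 member transcripts, 58 had a 3′ UTR and 32 had none. More than 1 transcript was annotated for 20 members, against 37.7% of all protein-coding genes and 46.1% of those with a symbol. By role these were 4 of 29 ligands, 8 of 12 receptors and 8 of 8 SMADs. In 5 members, BMP6, TGFB1, SMAD6, SMAD7 and SMAD9, the transcript with the longest coding sequence had no 3′ UTR while another one did. A 3′ UTR in that transcript was found in 36 of 50 members (72.0%), against 59.2% of all protein-coding genes and 71.9% of those with a symbol.

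All but 1 of the 20 members with several transcripts had more than 1 annotated 3′ end, the exception being TGFBR3. Of the 8237 protein-coding genes with several transcripts, 30.9% had 1 shared end, and of those with a symbol 30.4% did. The ends of BMP2 were farthest apart, at 22163 bases, with 3′ UTRs of 1125 and 754 bases. TGFB1 had 3 ends: a transcript of 390 codons stopped 8842 bases short of the gene's 3′ end with a 3′ UTR of 26 bases, 1 of 397 codons stopped 6250 bases short with 315 bases, and the 2 that reached the end had none. In BMP6 the transcript with a 3′ UTR, of 329 bases, stopped 8059 bases short of the other. In BMPR2 and SMAD5 the ends differed by 7128 and 5188 bases, the whole length of their 3′ UTRs, because the shorter transcript stopped at its stop codon. The same was seen in ACVR2A, ACVRL1, SMAD1, SMAD2, SMAD3, SMAD4, SMAD6, SMAD7, SMAD9 and TGFBR1, at the largest distance between their ends. Different ends that each carried a 3′ UTR were found only in BMP2, BMPR1B, SMAD2, TGFB1 and TGFB2. How often a missing 3′ UTR sets the ends apart over all genes was not counted. SMAD4, which every branch uses, had 1 transcript with a 3′ UTR of 1318 bases and 2 with none.

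**Figure D5:**
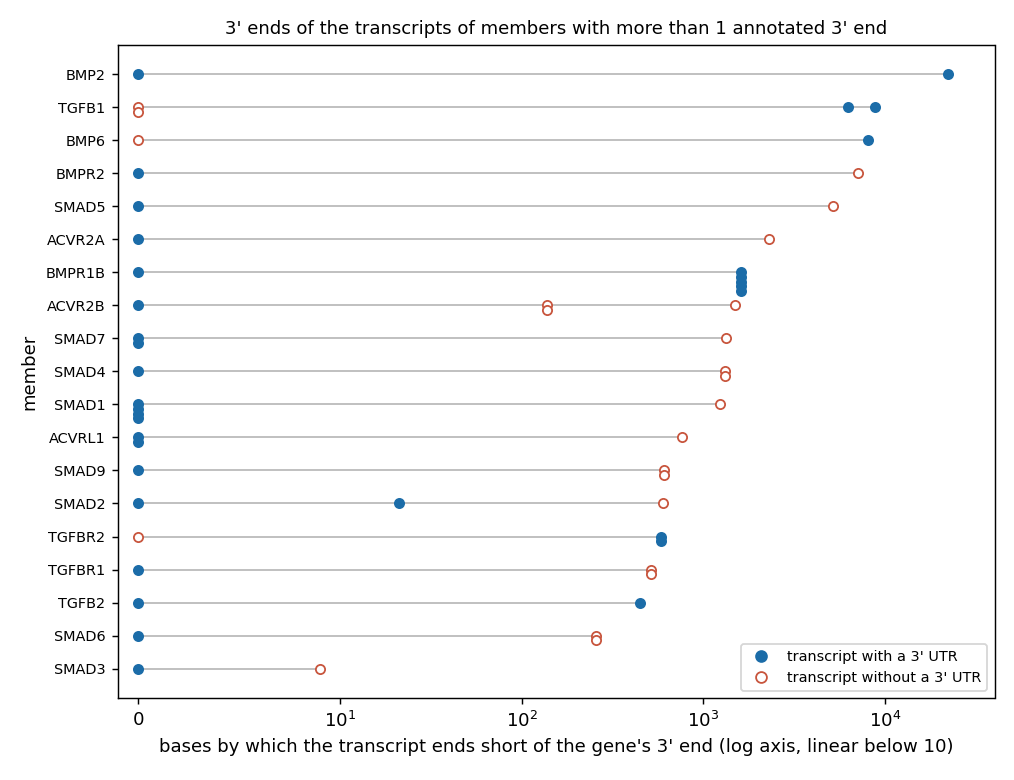
Each point is 1 transcript of the 19 members with more than 1 annotated 3′ end, placed by how many bases it stops short of the gene's 3′ end (x axis, log scale, linear below 10). Filled points have a 3′ UTR and open points have none; BMP2 reaches 22163 bases, TGFB1 8842 and BMP6 8059, while SMAD3 differs by 9 bases.

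A 5′ UTR in any transcript was annotated in 34 of 50 members (68.0%), against 66.4% of all protein-coding genes and 80.6% of those with a symbol. By role it was 16 of 29 ligands, 11 of 12 receptors and 7 of 8 SMADs. Exons before the start codon and introns were read only in the transcript with the longest coding sequence. There at least 1 exon lay wholly before the start codon in 8 members, against 18.4% of all protein-coding genes and 22.8% of those with a symbol. They were BMP2, BMP4, TGFB3, BMPR1A, TGFBR3, SMAD1, SMAD4 and SMAD5. In ACVR2B, ACVRL1, BMPR1B, SMAD2, SMAD6 and SMAD9 another transcript had more exons than coding exons, so this list depends on the transcript read. Of the 36 members with 2 or more introns, 22 had the first as the longest, against 39.9% of protein-coding genes with that many introns and 40.5% of those with a symbol. Receptors did so in 9 of 12 cases, among them BMPR2 with a first intron of 91155 bases. SMAD3 had one of 99862 bases.

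Members lay on 20 chromosomes and on no unplaced scaffold, with 7 on chromosome 2. In 5 places a pair of members stood side by side with no gene between them, and in each pair both lay on the same strand. INHBE and INHBC, activin chains of the liver, were 4518 bases apart on chromosome 5 (56005014 to 56006928 and 56011447 to 56022178, minus strand). GDF2 and GDF10 were 11608 bases apart on chromosome 28. The type I receptors ACVR1B (27884739 to 27915481, minus strand) and ACVRL1 (27943530 to 27957768, minus strand) were 28048 bases apart on chromosome 5. ACVR1 and ACVR1C (38753355 to 38831144, plus strand) were 155444 bases apart on chromosome 2. SMAD6 and SMAD3 were 274745 bases apart on chromosome 10. Each of these receptor pairs joined 1 gene of the set of TGFBR1 with 1 of the set of ACVR1 as grouped above by exon lengths. SMAD2, SMAD7 and SMAD4 lay in that order on chromosome 24, with gaps of 1015516 and 1897584 bases and 2 and 13 genes between.

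The next gene on the same strand began within 5000 bases of the 3′ end in 2 members, INHBC and INHBE, against 9.86% of all protein-coding genes and 10.8% of those with a symbol. INHBC, without a 3′ UTR, was followed after 4518 bases by INHBE, and INHBE after 1949 bases by GLI1, a transcription factor of Hedgehog signalling. The median distance to the next gene on the same strand was 165041.5 bases for members and 48602 bases for all protein-coding genes, or 48545.5 bases for those with a symbol. It differed by role, with 176373 bases in ligands, 61912 in receptors and 468035.5 in SMADs. Within the receptors it was 33215 bases in the 7 of type I, below that of all genes, and 283152 in the 4 of type II. Counting only genes wholly past the 3′ end of a member, the nearest on either strand was JSRP1, 180 bases after AMH. TXNDC5 lay 1147 bases after BMP6. On the 5′ side, BMP1 began 63 bases after the end of SFTPC, a lung surfactant gene on the same strand. GDF1 began 1586 bases after the end of CERS1 on the same strand, a gene known to be transcribed with it in mammals. TGFB1 began 558 bases from B9D2.

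Exon bases shared with another gene on the same strand were found in 1 member, AMH, against 1.75% of all protein-coding genes and 1.81% of those with a symbol. Its first 200 bases were also the last 200 bases of SF3A2, a splicing factor gene upstream with a 3′ UTR of 1000 bases. Position alone does not assign a read in those 200 bases to either gene, and how such reads were counted was not examined. With either strand counted, 3 members shared exon bases, against 8.11% of all protein-coding genes and 9.16% of those with a symbol. GDF5, a joint factor (chromosome 13, 64681475 to 64685560, minus strand), shared 715 bases with GDF5OS on the opposite strand. TGFB3 shared 93 bases with IFT43, whose gene overlapped the 5′ end of TGFB3. TGFB1 overlapped 3805 bases of CCDC97 on the opposite strand at its 3′ end and lay wholly inside the span of ENSBTAG00000054384, with 0 exon bases shared with either.

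Regulators of the pathway that the naming rule does not take were read in the same way. Of 52 such symbols, 48 were matched, and a 3′ UTR was annotated for 38 of these 48 genes, against 79.8% of all protein-coding genes with a symbol. Its median length was 940.5 bases, against 649 bases over genes with a symbol. Among proteins that hold TGF-beta latent or release it, 7 of 9 had one, the exceptions being LTBP4 and LRRC32. Of the secreted antagonists 11 of 14 had one, not NOG, CER1 or LEFTY2. Of the co-receptors, the decoy receptor BAMBI and AMHR2, the type II receptor of AMH, 6 of 7 had one, not RGMB. Of the nuclear and turnover partners 10 of 14 had one, not FOXH1, ZFYVE9, LEMD3 or LDLRAD4. The target genes ID1, ID2, ID3 and CCN2 each had one. NBL1, DAND5, LEFTY1 and CFC1 found no gene and are not analysed here.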

How the data were processed

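The deposited file is a gene annotation in gene transfer format. The genome build is the cattle assembly ARS-UCD1.2, per the file headers. Each feature carries a start and an end, in bases, and belongs to no sample. The submitters' processing notes name STAR, Cell Ranger 3 and Seurat. The sources used here do not say how reindeer reads were set against cattle gene models. No DNA or protein sequence was used.

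Per gene, span, exons, coding exons (stop codon left out), intron phases, UTRs, exon bases shared with other genes and distances to neighbours were computed. Exons were read from the transcript with the longest coding sequence, and ties went to the most exon bases, then the lowest identifier. The 3′ UTR is the longest over transcripts. Of the 50 members, 50 had start and stop codon in the transcript read. Groups were described by counts and medians beside all 21861 protein-coding genes and the 16808 with a symbol, with no test. Some genes of the list of pathway regulators are not reported here. Members, roles and lists were chosen with earlier results of these data known. Any member could be named; the values given are the extremes per role, members without a 3′ UTR or with shared exons, neighbours, and members with equal exon lengths. Other members' values and genes were picked after they were seen, among them ENSBTAG00000053451, TLL1, TLL2 and the exon length of 131 bases. On simulated gene models the reader was tested for 8 quantities, and each came out exactly for 2000 of 2000 genes. All transcripts of a simulated gene had the same exons and ends, and overlaps were laid on the same strand only. Not among the 8 quantities were 5′ UTRs, exons before the start codon, transcript ends and exon bases shared on either strand. Python 3.11.15, NumPy 2.4.6, SciPy 1.17.1 and matplotlib 3.10.9 were used.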

Additional observations from a re-analysis of the deposited data

How the results depend on the processing

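Alternatives changed the transcript read, the minimum length of a 3′ UTR, the strand, and the inclusion of BMP1 and TGFBR3. Of 36 alternative values over 16 results, 35 stayed within the 95% binomial interval of the main share or median, or within 1.5 times the main count. The exception was the number of members that share exon bases, which was 1 on the same strand and 3 on either strand. Some of the 35 could not have moved. Leaving out BMP1 and TGFBR3 removes no ligand and no SMAD, so the medians of these groups were bound to stay the same. All 8 SMADs have a 3′ UTR, so counting a missing one as 0 bases could not change their median. Intervals for groups of 8 to 29 genes are wide, so staying within them says little of small shifts. When a missing 3′ UTR was counted as 0 bases, the ligand median fell from 559.5 to 329 bases and the receptor median from 1852 to 1425 bases. The median SMAD span was 51924 bases in the transcript with the longest coding sequence, against 73469 bases for the gene. Reading every transcript for the first intron phase, and any pair of transcripts for equal exons, was chosen after seeing the data; the values, 29 ligands and 13 pairs, were those of the main reading. No paired analysis was possible because the annotation carries no samples. The models are of cattle, and their fit to reindeer transcripts was not tested.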
